A study of Mus musculus with 4 samples.

Results

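The 43 genes described here encode the machinery that copies DNA: the proteins that mark and load origins, the MCM helicase and its activators, the replicative polymerases with their sliding clamp and clamp loader, the enzymes that join the lagging strand, and enzymes that supply nucleotides. They were chosen by name out of 18193 genes represented on an Affymetrix oligonucleotide array, and each was followed through its brightest probe set (a group of oligonucleotides against 1 transcript). All 43 were on the array, with 97 probe sets between them, and 41 had a mean signal above the filter of 2.55 and were tested. Pola1, the catalytic subunit of DNA polymerase alpha, and Tyms, thymidylate synthase, fell below it with mean signals of 2.19 and 2.28. The closest members above it were Gins3 at 4.38 and Orc4 at 5.03.

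The samples were 4 cultures of mouse embryonic stem (ES) cells, each hybridised to 1 array. They comprised homozygous knock-out lines for BAF250 named ko1 and ko2, 1 heterozygous knock-out line and 1 wild type line. BAF250 is a DNA-binding subunit of BAF, a SWI/SNF complex that remodels chromatin. All were grown on gelatin without feeder cells, in serum-containing medium with an inhibitory factor that the labels name leukocyte inhibitory factor. The labels do not say which part of the gene was altered, nor whether ko1 and ko2 are separate clones. The p-values therefore rest on the spread between these arrays, which may be technical. Most of that spread was pooled over all tested genes, not taken from the gene itself. The number of arrays limits the precision.

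Replication starts at origins bound by the origin recognition complex, where CDC6 and CDT1 load a double ring of MCM2 to MCM7. CDC45 and the GINS complex join the ring to make the active helicase. Polymerase alpha with primase then starts each strand, and polymerases delta and epsilon extend it while held by the PCNA clamp, which the RFC complex loads. ES cells divide rapidly with short gap phases and carry abundant replication proteins. Many of the genes are known targets of E2F transcription factors, which act at the passage into S phase.

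The promoters of 5 members are shown to let a reader see what stands before genes with low and near-zero differences: Mcm2, Mcm3 and Pcna, with some of the lowest values, and Mcm5 and Mcm6, 2 further MCM genes that hold the E2F letters searched for. The windows run from 250 bases before to 50 bases after the start of the gene, 5′ to 3′ on the gene's strand, and come from RefSeq on build GRCm38.p6. Capitals mark the E2F letters TTTCGCGC or TTTGGCGC and the CCAAT box CCAAT, each on either strand. Mcm3 lies at chr1:20820263-20820562 (minus strand), Mcm5 at chr8:75109259-75109558 (plus), Mcm6 at chr1:128359656-128359955 (minus), Mcm2 at chr6:88898731-88899030 (minus) and Pcna at chr2:132253131-132253430 (minus).
Mcm3: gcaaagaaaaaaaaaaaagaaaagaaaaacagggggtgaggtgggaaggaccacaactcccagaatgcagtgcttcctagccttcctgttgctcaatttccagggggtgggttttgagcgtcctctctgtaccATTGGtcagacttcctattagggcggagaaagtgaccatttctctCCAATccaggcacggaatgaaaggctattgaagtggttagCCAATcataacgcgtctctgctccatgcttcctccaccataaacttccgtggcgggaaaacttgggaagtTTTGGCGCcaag
Mcm5: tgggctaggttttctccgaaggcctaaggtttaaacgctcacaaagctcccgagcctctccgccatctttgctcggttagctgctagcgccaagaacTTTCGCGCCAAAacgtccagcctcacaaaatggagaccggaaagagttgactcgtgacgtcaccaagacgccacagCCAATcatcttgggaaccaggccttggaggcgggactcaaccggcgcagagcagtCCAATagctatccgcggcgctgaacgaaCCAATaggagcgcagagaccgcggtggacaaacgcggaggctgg
Mcm6: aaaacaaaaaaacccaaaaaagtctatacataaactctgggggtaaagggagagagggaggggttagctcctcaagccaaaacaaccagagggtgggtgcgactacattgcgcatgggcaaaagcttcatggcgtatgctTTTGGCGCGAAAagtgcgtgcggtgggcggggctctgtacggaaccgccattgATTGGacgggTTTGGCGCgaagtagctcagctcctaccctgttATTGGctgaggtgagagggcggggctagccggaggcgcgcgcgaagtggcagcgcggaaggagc
Mcm2: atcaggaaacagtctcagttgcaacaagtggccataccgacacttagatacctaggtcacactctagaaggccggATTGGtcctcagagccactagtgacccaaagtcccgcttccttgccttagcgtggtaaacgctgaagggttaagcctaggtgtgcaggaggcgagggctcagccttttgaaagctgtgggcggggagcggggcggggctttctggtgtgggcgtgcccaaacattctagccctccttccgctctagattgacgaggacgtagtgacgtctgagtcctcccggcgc
Pcna: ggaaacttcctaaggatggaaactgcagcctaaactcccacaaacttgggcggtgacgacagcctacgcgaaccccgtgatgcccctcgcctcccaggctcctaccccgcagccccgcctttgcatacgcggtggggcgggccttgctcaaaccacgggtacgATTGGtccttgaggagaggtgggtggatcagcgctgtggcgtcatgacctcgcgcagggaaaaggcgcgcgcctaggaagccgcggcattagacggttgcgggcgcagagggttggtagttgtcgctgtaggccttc
In the Mcm3 window the E2F letters began 39 bases after the start of the gene. In Mcm5 they began 153 and 149 bases before it, as overlapping matches on the opposite strands. In Mcm6 they began at 110, 106 and 47 bases before it, the farther pair again overlapping. The Mcm2 and Pcna windows held a CCAAT box and no match to these E2F letters, which says only that the letters are not in the window. A window was found for 36 of the 43 members, and 10 of the 36 (27.8%) held the E2F letters, against 251 of 27025 genes in the whole table (0.929%). These were Cdt1, Lig1, Mcm3, Mcm5, Mcm6, Mcm7, Orc1, Pola1, Pole2 and Rfc3. The CCAAT box stood in 23 of the 36 (63.9%), against 41.1% of all genes. No window was taken for Gins1, Gins2, Gins4, Mcm4, Pole, Prim2 and Rfc2.

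The scaling of the deposited signals is not stated, and the level of the arrays differed. The median deposited signal was 2.70 (ko1), 2.61 (ko2), 2.74 (heterozygous) and 4.01 (wild type). The medians of 18 spiked control probe sets did not follow that order, at 642, 844, 483 and 699 for the same arrays. Here each array was centred on its median over the 13729 tested genes, after log2(signal + 0.675), and all log2 differences below are on that scale unless the deposited scale is named. That choice decides whether 0 or 3 members were called against wild type. The median tested gene then stood at -0.18 for homozygous minus wild type, against -0.75 on the deposited scale. Over all tested genes, 45 were called higher and 5 lower in homozygous than in wild type cells, against 55 and 84 on the deposited scale. The ratio of 3′ to 5′ actin control signal, a sign of RNA quality, was 5.01 (ko1), 2.61 (ko2), 2.86 (heterozygous) and 1.30 (wild type). Its part in the results was not tested. The brighter probe set of Arid1a (BAF250a) read 7.03 (ko1), 3.57 (ko2), 109 (wild type) and 50.4 (heterozygous), an order that fits the labelled genotypes. Its other probe set read 17.3 (ko1), 1.06 (ko2), 42.9 (wild type) and 24.1 (heterozygous), with ko1 nearer to heterozygous than to ko2. On both probe sets ko1 lay above its background of 5.55 and ko2 below its background of 3.82.

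**Figure D1:**
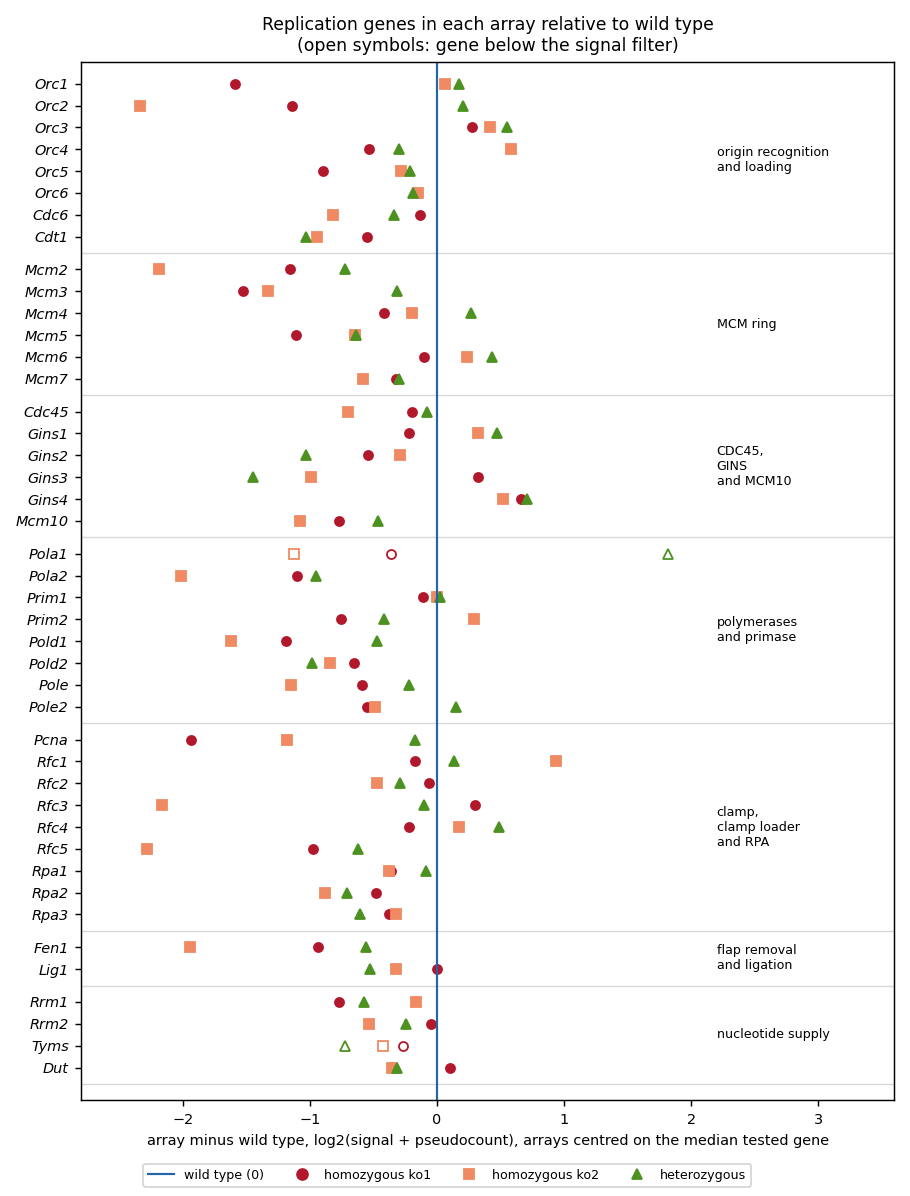
Difference of each array from wild type (x axis, log2 units, arrays centred on the median tested gene) for the 43 replication genes (y axis), grouped by role; circles are ko1, squares ko2, triangles heterozygous, and open symbols the 2 genes below the signal filter. Most points lie left of wild type, with Orc2, Mcm2, Rfc3, Rfc5, Pola2 and Fen1 furthest left in ko2 and Pcna furthest left in ko1.

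The main question was whether cells without an intact BAF250 allele differ in their replication transcripts from cells that keep one. Pcna, the gene of the clamp that tethers polymerases to DNA, was the 1 member called lower than wild type and heterozygous together. Its signals were 40.6 (ko1), 64.5 (ko2), 226 (wild type) and 131 (heterozygous). Both homozygous arrays lay below both others without overlap. Against the mean of wild type and heterozygous, Pcna was 2.78-fold lower (log2 difference -1.47 ± 0.35 (SE), limma adjusted p = 0.03, 2 arrays a side, 95% interval -2.19 to -0.75). None of the 41 members was called higher and 1 was called lower in this comparison, against 0.335% of all tested genes called lower and 0.889% called higher. At an unadjusted p under 0.05, 7 members were lower and none higher, where 4.95% of all tested genes were lower and 5.1% higher. The call of Pcna depended on every array but ko2: it ended without ko1 (-1.09, limma adjusted p = 0.132), without wild type (-1.38, adjusted p = 0.365) and without heterozygous (-1.56, adjusted p = 0.252). It also ended on the deposited scale, at a difference of -1.73 (adjusted p = 0.193, with 0.211% of all tested genes called lower and 0.444% higher). Without the intensity trend of the variance the difference was the same, with an adjusted p of 0.559 in a fit that called 0 of all 13729 genes.

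**Figure D2:**
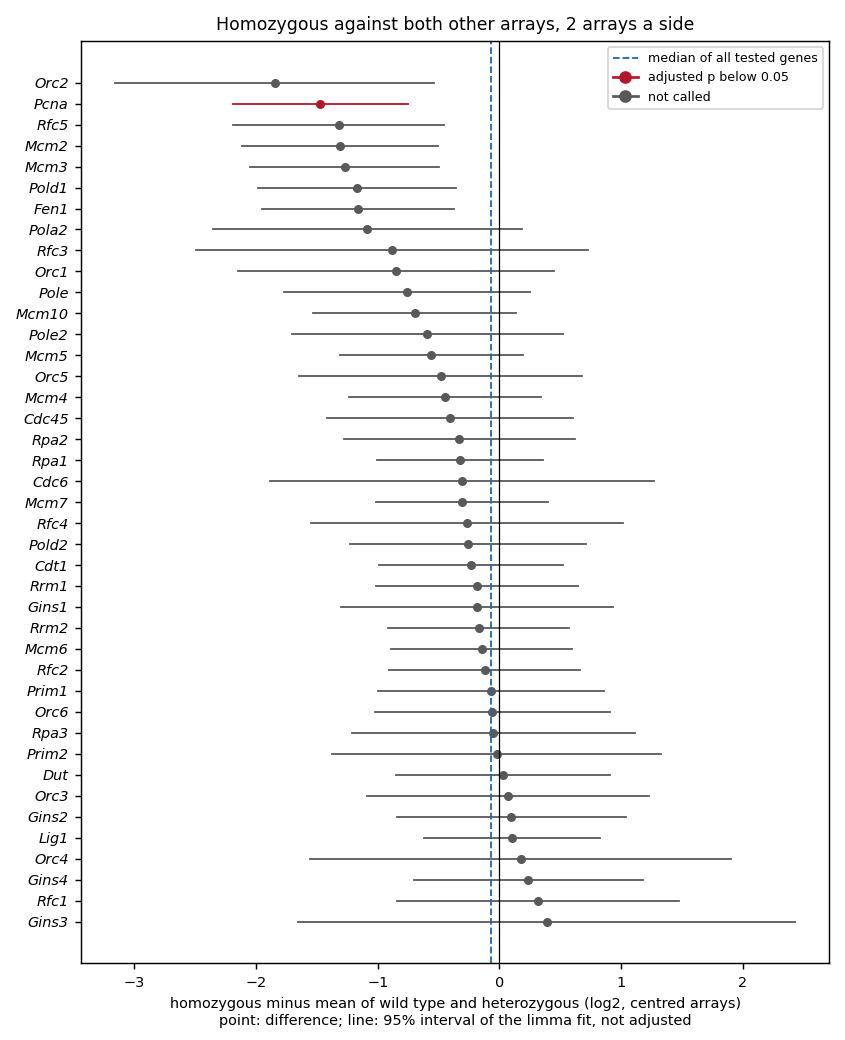
Homozygous minus the mean of wild type and heterozygous (x axis, log2 units, centred arrays) for the 41 tested replication genes (y axis, ordered by the difference); points are the differences, lines the 95% intervals of the limma fit, red marks an adjusted p below 0.05 and the dashed line is the median of all tested genes at -0.07. Pcna alone is called, and the intervals of Orc2, Rfc5, Mcm2, Mcm3, Pold1 and Fen1 also lie below 0 before adjustment.

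Over all 41 tested members, 33 lay below 0 in that comparison, where 53.3% of all tested genes did. Their median was -0.30, beside -0.07 for all tested genes. In 18 of the 41 (43.9%) both homozygous arrays were below both others, against 21.5% of all tested genes, and in 0 of the 41 were both above both others, against 18.1%. These counts were 16 of 41 after quantile normalization (21.4% of all genes), 15 of 41 with arrays centred on genes above background (18.8%) and 22 of 41 on the deposited scale (26.9%). They are descriptions of 4 arrays and no test of the list.

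Set against wild type only, most members read lower in both homozygous lines, but none passed the test. The wild type array was the highest of the 4 in 25 of the 41 members, where it was in 27.8% of all tested genes, and on the deposited scale in 39 of 41 (55.1%). The heterozygous array was below wild type too, in 30 of 41. The median difference was -0.45, beside -0.18 for all tested genes, and it was -0.48 in ko1 and -0.49 in ko2. Of the 41 members 35 were below 0, where 57.4% of all tested genes were, and 30 of 41 with arrays centred on genes above background (50.7% of all genes). limma called 0 members, where 0.0364% of all tested genes were called lower and 0.328% higher. At an unadjusted p under 0.05, 7 members were lower and 0 higher (2.58% of all genes lower, 4.38% higher). The standard error of a member's difference had a median of 0.56, and 33 of the 41 differences were smaller than 1 in size. Only on the deposited scale, which adds the level of the wild type array to each difference, were 3 members called lower and 0 higher, against 0.612% and 0.401% of all tested genes. They were Mcm2 (-2.24 ± 0.55, adjusted p = 0.0273), Rfc5 (-2.19 ± 0.57, adjusted p = 0.0407) and Pcna (-2.12 ± 0.56, adjusted p = 0.0432).

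**Figure D3:**
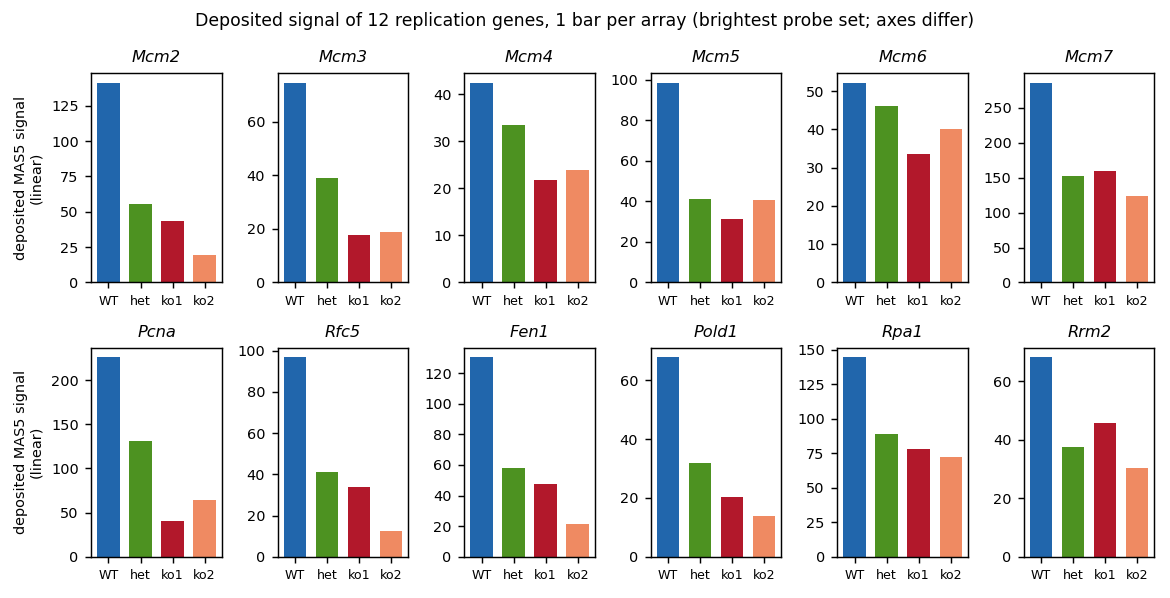
Deposited MAS5 signal (y axis, linear, starting at 0, a different scale in each panel) of 12 replication genes in the wild type (WT), heterozygous (het), ko1 and ko2 arrays, 1 bar per array and no error bars. The wild type bar is the tallest in every panel, on arrays whose median signal was 4.01 in wild type and 2.61 to 2.74 in the others, and the Pcna bars run from 226 in wild type to 40.6 in ko1.

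Among the origin recognition and loading genes, Orc2 stood lowest and Orc3 highest, and none of the 8 was called in any comparison. Orc2, a core subunit of the origin recognition complex, read 6.02 (ko1), 2.05 (ko2), 20.5 (wild type) and 15.3 (heterozygous). In ko2 it was under that array's background of 3.82, the brightest of 27 control probe sets for transcripts absent from the sample. Against both others Orc2 stood at -1.85 ± 0.63 (limma adjusted p = 0.234), with no overlap between the groups. A second Orc2 probe set stood at -0.77 for homozygous minus wild type and another at 0.69, both partly at background, so the probe sets differed in direction. Orc1, the ATPase subunit that is made anew each cycle, read 3.17 (ko1), 10.6 (ko2), 15.9 (wild type) and 11.6 (heterozygous). The homozygous arrays thus differed more from each other than ko2 did from either other array. Orc3 read between 9.13 and 10.9 on all 4 arrays, a difference of 0.35 ± 0.68 for homozygous minus wild type (adjusted p = 0.933). Orc6 stood at -0.15, Orc5 at -0.59 and Orc4, mostly at background, at 0.02. Cdt1, which brings the MCM ring to origins, read 83.3 (ko1), 59.1 (ko2), 175 (wild type) and 56.0 (heterozygous). The wild type array alone was high for Cdt1, and homozygous minus heterozygous was 0.28. Cdc6, its partner in loading, was at 5.98, 3.19, 9.74 and 4.75 in the same order, near or below background on ko2 and heterozygous.

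The 6 genes of the MCM ring did not stand at the same level, although their products act as a hexamer. Mcm2 read 43.8 (ko1), 19.6 (ko2), 141 (wild type) and 55.6 (heterozygous), so ko2 was lowest and the heterozygous value was closer to ko1 than to wild type. Homozygous minus wild type was -1.67 ± 0.52 (limma adjusted p = 0.423), and against both others it was -1.31 ± 0.39 (adjusted p = 0.125). Mcm3 read 17.6 (ko1), 18.9 (ko2), 74.5 (wild type) and 39.0 (heterozygous), with the homozygous arrays close together. Its differences were -1.43 ± 0.48 against wild type and -1.27 ± 0.38 against both others (adjusted p = 0.489 and 0.123, in that order). Mcm5 stood at -0.88 against wild type with the heterozygous array (41.1) level with ko2 (40.7) in deposited signal. Mcm7 (-0.45), Mcm4 (-0.31) and Mcm6 (0.07) were nearer to 0. Mcm6 read 33.7 (ko1), 40 (ko2), 52.1 (wild type) and 46.0 (heterozygous), which after centring is no difference from wild type beyond the error of 0.47. The group median was -0.67 against wild type and -0.50 against both others. On the probe sets used, both homozygous arrays were below both others in 5 of the 6 genes, all but Mcm6, against 21.5% of all tested genes. For Mcm5 and Mcm7 this rests on near ties with the heterozygous array, at -0.007 for Mcm5 in ko2 and -0.02 for Mcm7 in ko1. In all 6 the homozygous mean lay below the heterozygous array, by between 0.15 and 1.11, where it did in 52.9% of all tested genes.

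The values of the ring activators were nearer to 0, with a median of -0.38 against wild type. Mcm10, which helps to switch the loaded helicase on, read 20 (ko1), 15.0 (ko2), 49.9 (wild type) and 23.4 (heterozygous). That gave -0.93 ± 0.51 against wild type (adjusted p = 0.777). Cdc45 stood at -0.45. The GINS subunits, which bind CDC45 to the ring, were spread around 0: Gins4 at 0.59 ± 0.55, the highest of all 41 members, Gins1 at 0.05, Gins3 at -0.34 and Gins2 at -0.42. Gins4 read 18.4, 15.5, 16.6 and 17.8 in ko1, ko2, wild type and heterozygous, almost the same deposited signal on every array. For Gins2 the lowest array was heterozygous at 11.0, with 16.8 for ko1, 18.7 for ko2 and 35.7 for wild type.

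All 7 tested polymerase and primase genes lay below 0 against wild type and against both others, with none called. Of all tested genes 57.4% and 53.3% lay below 0, in that order. Pold1, the catalytic subunit of polymerase delta, read 20.4 (ko1), 13.9 (ko2), 67.8 (wild type) and 31.7 (heterozygous). It stood at -1.40 ± 0.50 against wild type (limma adjusted p = 0.55) and -1.17 ± 0.39 against both others (adjusted p = 0.219). Pola2, the regulatory subunit of polymerase alpha, read 7.84, 3.54, 25.4 and 8.21 in the same order, so that wild type alone was high. Its difference was -1.56 ± 0.75, with ko2 at background. Pole, the catalytic subunit of polymerase epsilon, stood at -0.87, its partner Pole2 at -0.52 and Pold2 at -0.75. On the probe sets used the primase subunits were closest to 0, Prim1 at -0.06 and Prim2 at -0.23. For Prim2 that probe set was at background in ko1 and heterozygous. Its other probe sets past the filter stood at -1.87 and -1.84, both at background on every array but wild type. Prim1 read 14.5 (ko1), 14.6 (ko2), 22.8 (wild type) and 15.0 (heterozygous), and after centring it stood at -0.11 in ko1 and 0.02 in heterozygous relative to wild type. Pola1 read 0.822 (ko1), 0.15 (ko2), 2.08 (wild type) and 5.69 (heterozygous), below background on all 4 arrays, and has no usable level here.

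Among the clamp, clamp loader and RPA genes, Pcna and Rfc5 had the lowest values. Rfc5, a small subunit of the clamp loader, read 34.0 (ko1), 12.4 (ko2), 96.7 (wild type) and 40.9 (heterozygous). Its difference was -1.63 ± 0.57 against wild type (limma adjusted p = 0.525) and -1.32 ± 0.42 against both others (adjusted p = 0.173). Rfc1, the large subunit, stood at 0.38, with 15.6 in ko2 as its highest array and 7.42 in ko1 as its lowest. Rfc2 stood at -0.27 and Rfc4 at -0.02. Rfc3 read 11.0 in ko1 and 1.30 in ko2, so its -0.93 ± 1.04 rests on ko2, where it was at background. RPA, the trimer that coats single-stranded DNA, had differences of -0.37 for Rpa1, -0.68 for Rpa2 and -0.35 for Rpa3. Rpa1 read 78.3 (ko1), 72.2 (ko2), 144 (wild type) and 89.0 (heterozygous), and Rpa2 and Rpa3 had their heterozygous value within or below the homozygous range.

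Of the enzymes that finish the lagging strand, Fen1 stood lower than Lig1, a difference between genes that was not tested. Fen1, the flap endonuclease, read 47.2 (ko1), 21.5 (ko2), 130 (wild type) and 57.8 (heterozygous), with no overlap between the groups. It stood at -1.44 ± 0.52 against wild type (limma adjusted p = 0.56) and -1.16 ± 0.38 against both others (adjusted p = 0.198). Lig1, the ligase that seals the nick, read 64.7, 48.3, 93.0 and 42.0 in ko1, ko2, wild type and heterozygous, with heterozygous the lowest deposited signal, and stood at -0.16. The 3 tested genes of nucleotide supply had a median of -0.29 against wild type, beside -0.18 for all tested genes. Rrm1 and Rrm2, the subunits of ribonucleotide reductase, stood at -0.47 and -0.29, and Dut, the dUTPase, at -0.13. None of these 3 had both homozygous arrays below both others, where 21.5% of all tested genes did. Tyms read 2.11, 1.65, 4.12 and 1.23, below background on every array.

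The ko1 and ko2 arrays did not place the same genes lowest. With 1 array each, a difference between them may be technical. Pcna was lower in ko1 (-1.94 against wild type) than in ko2 (-1.18). Mcm2, Rfc5 and Fen1 were lower in ko2, at -2.19, -2.29 and -1.95, than in ko1, at -1.16, -0.97 and -0.94. With ko1 left out, those 3 genes were called lower than wild type and heterozygous together and Pcna was not, in a fit that called 64 of all 13729 genes lower and 65 higher. The limma adjusted p-values were then 0.00793 for Mcm2, 0.00695 for Rfc5 and 0.0156 for Fen1, with the lone homozygous array assumed to vary like the others. With ko2 left out, Pcna was called (limma adjusted p = 0.0007) and those 3 were not, in a fit that called 136 genes lower and 162 higher. Over all members ko2 was below ko1 in 22 of 41, where 53.5% of all tested genes were.

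**Figure D4:**
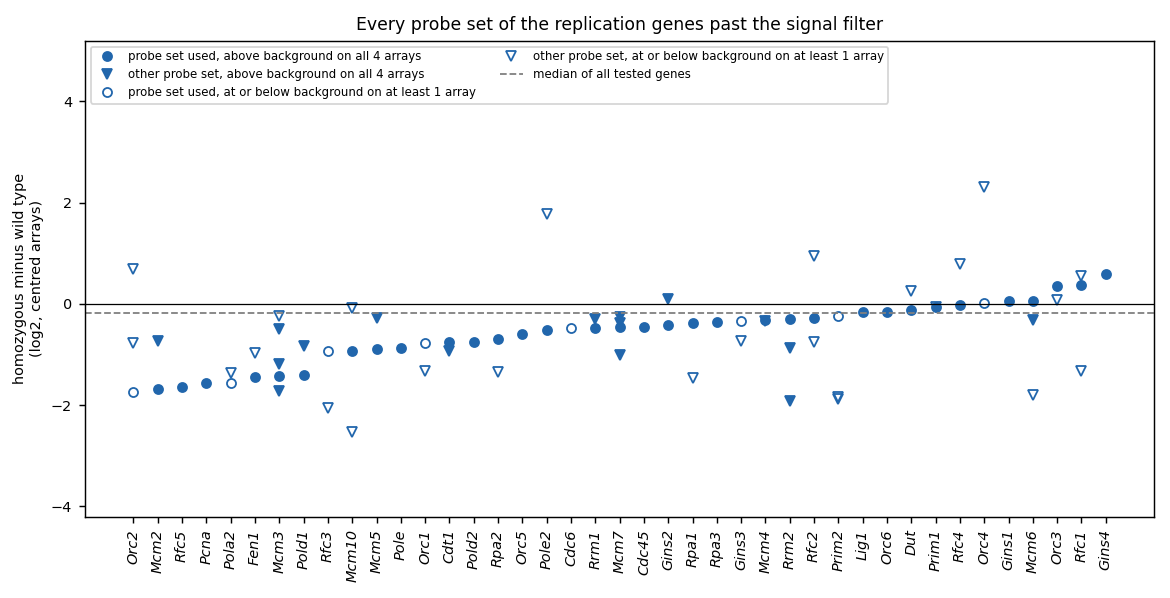
Homozygous minus wild type (y axis, log2 units, centred arrays) for every probe set past the signal filter of the 41 tested replication genes (x axis, ordered by the probe set used); circles are the probe sets used, triangles the others, filled symbols lie above background on all 4 arrays and the dashed line is the median of all tested genes at -0.18. Filled symbols lie mostly below 0, and open symbols spread from -2.54 (Mcm10) to 2.32 (Orc4).

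Where a gene had several probe sets, they usually pointed the same way. Of the 29 members with more than 1 probe set past the filter, 21 had all of them on the same side of 0 for homozygous minus wild type. In 19 of the 21 that side was lower. How often the probe sets of other genes agree was not computed. Of the 82 member probe sets past the filter 67 were below 0, where 56.5% of all such probe sets were. Of the 49 member probe sets above background on all 4 arrays, 43 were below 0, where 60.3% of such probe sets over the whole array were. The 4 Mcm3 probe sets above background stood at -1.43, -1.18, -0.50 and -1.71, and the second Mcm2 probe set at -0.73, less than the -1.67 of the probe set used. Of the 4 Mcm7 probe sets, 3 stood at -0.45, -0.38 and -0.25, and the other was lower, reading 56.6 in ko1 and 50.8 in ko2, with 160 for wild type and 92.4 for heterozygous. Rrm2 varied most among probe sets above background: the probe set used stood at -0.29 and the others at -1.91 and -0.87, the first of these reading 7.25 in ko1 against 31.9 in ko2. Pcna and Rfc5 have 1 probe set each, so no other probe set bears on them. The Fen1 probe set used is of a design that can bind related transcripts (its name ends in x_at), and the other, at background in ko1, stood at -0.97.

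Against the heterozygous line, the homozygous lines were lower in 27 of 41 members (52.9% of all tested genes) and none was called (limma, 0.0291% of all tested genes called lower and 0.32% higher). At an unadjusted p under 0.05, 3 members were lower and 0 higher (1.97% of all tested genes lower, 4.6% higher). The median was -0.24, beside -0.07 for all tested genes. Pcna (-1.38 ± 0.50, adjusted p = 0.57), Orc2 (-1.95 ± 0.80) and Mcm3 (-1.11 ± 0.48) were the lowest, and Gins3 (1.11 ± 1.19), mostly at background, the highest.

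The heterozygous line also read lower than wild type in most of these genes, with none called. Of the 41 members 30 were below 0, where 53.2% of all tested genes were, and the median was -0.30, beside -0.07. limma called 0 members and 0 genes overall (0%), and 0 members had an unadjusted p under 0.05 in either direction, where 1.77% of all tested genes were lower and 1.42% higher at that level. There is 1 array on each side, so the spread was borrowed from the homozygous lines, mostly pooled over all tested genes. Among genes above background on all arrays, Cdt1 and Gins2 were lowest, each at -1.03, and Gins4 at 0.71 was highest. Pcna stood at -0.18 between heterozygous and wild type.

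The members with the E2F letters in the promoter window had a median of -0.75 for homozygous minus wild type over the 9 tested, from -1.43 (Mcm3) to 0.07 (Mcm6). Those with a window without the letters had a median of -0.47 over 25, from -1.74 (Orc2) to 0.38 (Rfc1). The difference between these medians was not tested.

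**Figure D5:**
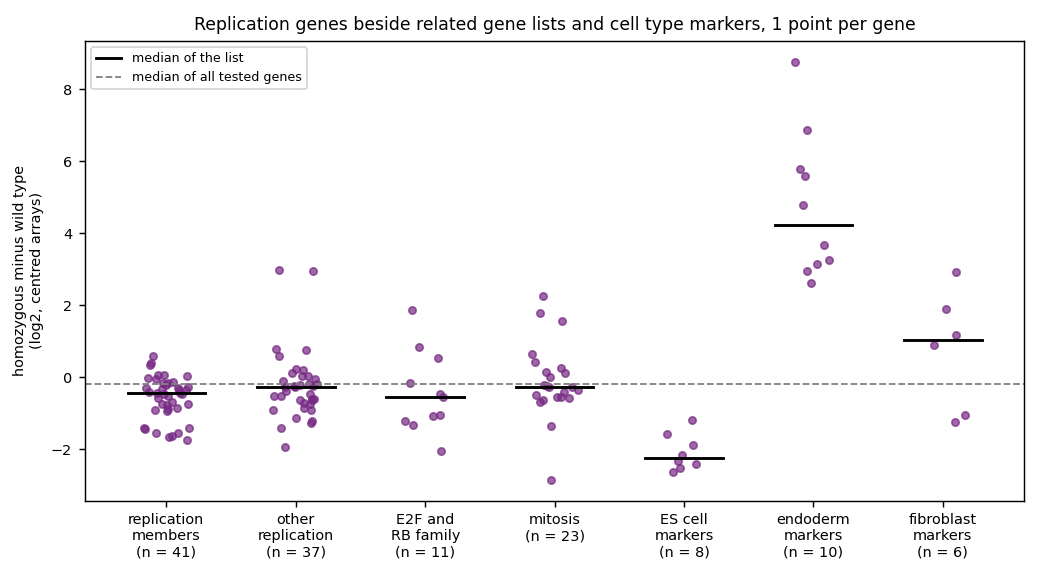
Homozygous minus wild type (y axis, log2 units, centred arrays) with 1 point per tested gene for the replication genes, 3 related lists and 3 lists of cell type markers (x axis); black bars are list medians and the dashed line the median of all tested genes at -0.18. The replication genes are packed between -1.74 and 0.59, while ES cell markers lie lower (median -2.25) and endoderm markers higher (median 4.23).

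Other replication genes, outside the 43, gave no calls: of 40 listed 37 were tested and limma called 0 in either direction in any comparison. Against wild type 27 were below 0, where 57.4% of all tested genes were, and the median was -0.29, beside -0.18. At an unadjusted p under 0.05 against wild type, 1 was lower and 2 were higher, where 2.58% of all tested genes were lower and 4.38% higher. The same shares apply to the E2F and mitosis lists below. Chaf1b, a subunit of the histone chaperone that works behind the fork, read 17.7 (ko1), 10.6 (ko2), 50.9 (wild type) and 20.5 (heterozygous), a difference of -1.27. Mcm8 (-1.96) was at background on every array, and Ticrr (-1.41) on every array but wild type. The highest were Dck (2.98), the deoxycytidine kinase, and Recql4 (2.95), a helicase. Dck read 6.52 (ko1), 6.86 (ko2), 0.708 (wild type) and 0.209 (heterozygous). Recql4 read 12.2 (ko1), 3.48 (ko2), 0.728 (wild type) and 7.86 (heterozygous). Both were at background in wild type, Dck also in heterozygous and Recql4 also in ko2, so neither difference is measured on both sides. Of the E2F and retinoblastoma family genes 11 of 13 were tested and limma called 0, with a median of -0.57 (1 lower and 0 higher at an unadjusted p under 0.05). E2f4 read 8.60 (ko1), 8.35 (ko2), 33.3 (wild type) and 19.1 (heterozygous), a difference of -1.33, E2f1 stood at -0.46, and E2f7 (-2.06) and E2f6 (1.86) were the lowest and highest. E2f7 was at background on every array but wild type, and E2f6 was at background there, so these differences too are not measured on both sides. Of 24 mitosis genes 23 were tested and limma called 0, with a median of -0.27. Below 0 lay 15 of 23, where 57.4% of all tested genes did. At an unadjusted p under 0.05, 0 were lower and 1 was higher. Cdk1, the mitotic kinase, stood at 0.15, Top2a at -0.58 and Ccna2 at -0.68. Mki67 was the highest at 2.26, with 19.6 (ko1), 12.7 (ko2), 4.39 (wild type) and 10.4 (heterozygous), and Kif11 the lowest at -2.85. Mki67 was at background in wild type and Kif11 in ko1, ko2 and heterozygous, so the size of both differences is not measured on both sides.

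Markers of cell state differed between genotypes by larger log2 values than the replication genes. The 8 ES cell markers were above background on all 4 arrays. Their summed deposited signal was 3188 in wild type, 1906 in heterozygous, 746 in ko1 and 860 in ko2. Most of it was Dppa5a, at 2341, 1539, 658 and 725 in the same order. Dppa5a was not called against both others (-1.20, limma adjusted p = 0.382). Of the 8, 5 were called lower against wild type and heterozygous together, where 0.335% of all tested genes were. Against wild type 1 (Utf1) was called lower, where 0.0364% of all tested genes were. The 10 markers of extraembryonic endoderm, a differentiated lineage that ES cultures can give rise to, summed to 6880 (ko1), 3842 (ko2), 148 (wild type) and 109 (heterozygous). All 10 were above background in both homozygous arrays, where wild type had 5 and heterozygous 4. All 10 were called higher against both others, where 0.889% of all tested genes were. Of the 8 fibroblast markers, ko1 had 3 above background, ko2 had 4, wild type 2 and heterozygous 0, and their summed signal was between 19.2 and 53.5. The part of these cell state markers in the replication values was not tested. In bulk RNA, fewer cells of a type and less RNA per cell cannot be told apart.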

How the data were processed

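Total RNA of 4 cultures was labelled with biotin and hybridised to 1 array each, per the labels' protocols. The authors deposited 1 linear signal intensity per probe set. The submitters' processing notes name MAS5 for them; its version and scaling target are not given in the sources used. Of 45101 probe sets, 34958 had 1 gene symbol in the platform annotation, 932 several and 9211 none. Probe sets with several or none were left out, among them 2 that name a member. The brightest probe set stood for each gene, and a gene was tested if its mean signal over the arrays passed 2.55, the 40th percentile.

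The working scale was log2(signal + 0.675), the added value being the 20th percentile of all deposited signals, with each array centred on its median over the 13729 tested genes. Differences of dim genes are understated. limma 3.58.1 in R 4.3.3 (lmFit, eBayes with an intensity trend) was fitted with 1 mean per genotype, which leaves 1 residual degree of freedom, and with homozygous against both other arrays, which leaves 2. With the spread pooled over all tested genes, the median total degrees of freedom were 12.4 and 23.7, in that order. The second fit treats wild type and heterozygous as replicates of 1 group although they differ in genotype. Benjamini-Hochberg adjustment ran over all tested genes with a threshold of 0.05. The fit was tested on simulated data. Members, lists and alternatives were chosen with earlier results of these data known. Values were given for members called in any fit, for the 3 highest and 3 lowest against wild type, for the brightest and dimmest and for each role, of other lists for the extremes, and for others to complete a group. Alternatives were other scalings, pseudocounts, filters, probe set averages, a variance without trend and leaving out arrays.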

Additional observations from a re-analysis of the deposited data

How the results depend on the processing

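The median over the members stayed below 0 in all 4 comparisons under every alternative run. On the deposited scale it was -1.02 for homozygous minus wild type and -0.91 for heterozygous minus wild type, since that scale carries the level of the wild type array. The median for homozygous minus wild type was -0.29 with arrays centred on genes above background, -0.34 after quantile normalization and -0.54 with probe sets averaged. Members called lower than wild type numbered 3 on the deposited scale and 0 otherwise. Against wild type and heterozygous together, Pcna had a limma adjusted p of 0.246 with probe sets averaged, although it has 1 probe set. That fit called 1 of all 13729 genes lower and 23 higher, against 46 and 122 in the fit reported. Its median total degrees of freedom were 7.76, beside 23.7, and the cause of the lost call was not tested. Members called in this comparison numbered 1 in the fit reported and 0 on the deposited scale, with probe sets averaged and without the intensity trend. Leaving out each array in turn gave from 0 to 3, while the genes called lower among all 13729 numbered from 7 (without wild type) to 136 (without ko2). The call of Pcna held after quantile normalization (adjusted p = 0.0182), with arrays centred on genes above background (0.0351), with the pseudocount divided by 16 (0.0354), with the pseudocount at the 40th percentile (0.0186) and without the filter on dim genes (0.0487). Calls over all genes for homozygous minus wild type were also few with probe sets averaged (7 higher, 0 lower) and 0 without the trend. No paired analysis was possible because the labels number the homozygous lines only. Signals near background (3.82 to 7.57) limit the values of Orc1, Orc2, Orc4, Cdc6, Gins3, Pola1, Pola2, Prim2, Rfc3 and Tyms.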
